A study of Mus musculus with 18 samples.

Results

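Cultured B16F10 cells in which Hgs, the gene of the protein Hrs, was knocked down are described here, as 8 of the 18 RNA-sequencing libraries of the series. The 8 libraries were taken by their labels: every library of cultured cells, of which 4 carried a short hairpin RNA against Hrs (shHrs) and 4 a scrambled hairpin (shCTL). They fell into 2 batches, each with 2 shHrs and 2 shCTL libraries. The other 10 libraries came from tumours of the same cells, 5 with each hairpin, grown in immunocompetent C57BL/6 mice (female, 6 to 8 weeks old), and serve here only to show where the cultures differed from tumours. B16F10 is a melanoma line of C57BL/6J mice. Every group carried an integrated lentiviral vector, pLKO.1 for the hairpins against target genes, and had been selected with puromycin (2 µg/ml) or blasticidin (5 µg/ml) for 5 days, so that each group was a selected pool and not a clone. The labels call the cultures biological repeats without saying that those of a batch were grown or infected separately. The p-values therefore measure only how far these libraries differ, and part of that may be technical.

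Hrs is the subunit of ESCRT-0 that binds ubiquitinated membrane proteins on endosomes. With its partners Stam and Stam2 it hands this cargo to ESCRT-I, ESCRT-II and ESCRT-III, which bud vesicles into the endosome. Receptors sorted in this way are degraded in lysosomes, and some of the vesicles are released as exosomes. By its title the series concerns protein homeostasis and the interferon pathway. In that pathway, secreted interferon or foreign nucleic acid in the cytosol switches on a broad set of antiviral genes through factors that include Stat2 and Irf9, which bind an interferon-stimulated response element (ISRE) in their promoters.

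Total counts per culture ran from 18491446 to 27578293, and libraries of a group differed by far more than sampling noise (chi-square per degree of freedom 35.5 to 209). The batch 1 shHrs cultures were unlike each other. Over 12617 genes the root mean square difference in log2 CPM (counts scaled to a common library size) was 1.03 between those 2 libraries, against 0.469 between the shHrs libraries of batch 2, and batch 1 shHrs replicate 1 was nearer to shCTL replicate 1 of its own batch (0.652). Batch 1 shHrs replicate 2 stood alone on the second principal component. Of 10 melanoma markers, 0 were under 1 CPM in all 8 libraries, and their summed level was 15500 to 25200 CPM with shCTL and 8150 to 29000 CPM with shHrs. Most markers of other cell types, though not those of fibroblasts, stayed under 1 CPM in every culture. These were 14 of 16 myeloid, 15 of 15 lymphoid, 8 of 8 keratinocyte, 5 of 5 red cell and 8 of 10 endothelial markers, but 4 of 10 fibroblast markers. The summed myeloid level was 6.85 to 36.6 CPM with shCTL and 3.37 to 7.12 CPM with shHrs. The summed fibroblast level was 39.8 to 94.4 and 32.4 to 67.1 CPM. The summed endothelial level was 270 to 420 and 327 to 541 CPM, and came almost only from Eng and Vwf.

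**Figure D1:**
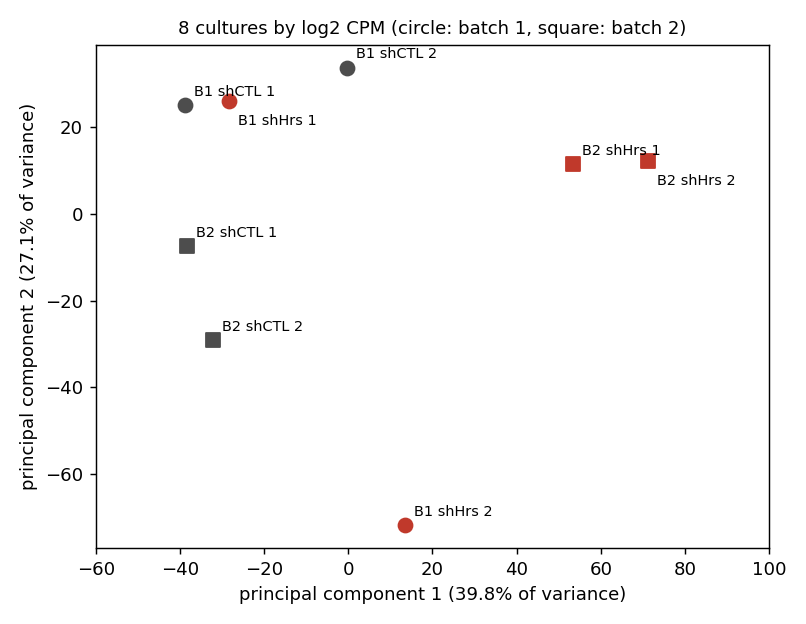
First and second principal components of log2 CPM of the 8 cultures, as unitless scores, with the share of variance on each axis (39.8% and 27.1%). Circles are batch 1, squares batch 2, grey shCTL and red shHrs. The batch 2 shHrs libraries lie together on the right, batch 1 shHrs replicate 2 lies apart at -71.8 on the second component, and batch 1 shHrs replicate 1 lies beside batch 1 shCTL replicate 1.

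Hgs itself, at chr11:120467635-120483979 of GRCm38 (mm10) on the plus strand, was lower in all 4 shHrs cultures than in all 4 shCTL cultures, by about the same factor in both batches. Batch 1 had 96.2 and 116 CPM with shCTL and 36.3 and 30.3 CPM with shHrs. Batch 2 had 100 and 108 CPM with shCTL and 44.2 and 40.1 CPM with shHrs. Batch 1 shHrs replicate 1, which lay beside a control on the first 2 principal components, was thus no exception for Hgs. The log2 fold change was -1.67 in batch 1, -1.30 in batch 2 and -1.49 (SE 0.17) over both. By edgeR's quasi-likelihood test the adjusted p of Hgs was 0.0502 over both batches, just outside the threshold of 0.05, and it ran from 7.05e-11 to 0.375 over 15 other settings, under 0.05 in 6. In batch 2 the adjusted p was 0.0268.

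The partners of Hrs and the later ESCRT complexes had values near 0. Stam, which pairs with Hrs, had 62.1 and 56.1 CPM with shCTL and 58.2 and 175 CPM with shHrs in batch 1. In batch 2 Stam had 75.3 and 116 CPM with shCTL and 58.3 and 61.3 CPM with shHrs. The groups overlapped in batch 1, and the value of 175 CPM belonged to 1 library, batch 1 shHrs replicate 2. Over both batches Stam had a log2 fold change of 0.15 (SE 0.44), which turned to -0.41 without that library. Stam2 had 0.16 (SE 0.18). In batch 2 edgeR called 4.03% of all genes, 1.6% higher and 2.43% lower. Of 14 tested genes of ESCRT-0 and its partners, 1 was called in batch 2, Hgs itself. Of 26 tested genes of ESCRT-I to ESCRT-III, 1 was called there, a share near that of all genes. It was the ESCRT-I subunit gene Mvb12b, which fell by 1.18 on the log2 scale (SE 0.24, edgeR adjusted p = 0.0378). Mvb12b stood at 186 and 214 CPM with shCTL and at 99.0 and 77.5 CPM with shHrs in batch 2, and overlapped in batch 1 (161 and 127 against 145 and 143 CPM). Over the 8 cultures Tom1, an endosomal adaptor that binds ubiquitin, had 0.44 (SE 0.15), and Pdcd6ip, which encodes the ESCRT-III partner Alix, had 0.30 (SE 0.15); in both, every shHrs library was above every shCTL library of its batch. The median log2 fold change was 0.14 for the ESCRT-0 list and 0.13 for the later complexes, beside -0.02 over all genes tested.

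Among exosome genes, Cd82, a tetraspanin of exosome membranes, was lower with shHrs in each batch. It had 45.7 and 29.3 CPM with shCTL and 25.8 and 24.9 CPM with shHrs in batch 1, and 42.6 and 50.9 against 24.1 and 23.3 CPM in batch 2. The groups did not overlap, and the log2 fold change of Cd82 was -0.77 (SE 0.20, edgeR adjusted p = 0.291). Rab35, a GTPase of exosome release, had 0.39 (SE 0.15), and the list of 18 exosome genes had a median of -0.02. Of 35 tested Rab GTPases and endosomal sorting genes, 7 lay above their controls in both batches (4.77% of all genes) and 1 below (5.49%). Rab11b of recycling endosomes had 71.8 and 112 CPM with shCTL and 125 and 123 CPM with shHrs in batch 1, and 73.3 and 70.9 against 136 and 157 CPM in batch 2. That was a log2 fold change of 0.73 (SE 0.21, edgeR adjusted p = 0.314). Among 23 receptors and other cargo genes, Pdgfra, a platelet-derived growth factor receptor, had -1.68 (SE 0.39, edgeR adjusted p = 0.268). Pdgfra is also a fibroblast marker, and its level was between 1.63 and 2.90 CPM in shCTL and between 0.57 and 1.10 CPM in shHrs cultures. The collagen receptor gene Ddr2 fell in batch 2 (log2 fold change -2.60, SE 0.40, edgeR adjusted p = 0.0230), from 605 and 623 to 117 and 86.7 CPM. The groups of Ddr2 overlapped in batch 1, with 363 and 202 CPM with shCTL and 359 and 676 CPM with shHrs.

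Taking both batches in 1 fit with batch as a term, edgeR called 0 of 12617 genes (0.0%), while 1680 (13.3%) had an unadjusted p under 0.05, 723 of them higher (5.73%) and 957 lower (7.59%). DESeq2 called 301 genes, limma voom 5 and limma voom with sample quality weights 2114. With batch 1 shHrs replicate 1 left out, edgeR called 164 of 12862 genes (1.28%), 56 higher (0.435%) and 108 lower (0.84%). Leaving out batch 1 shCTL replicate 2 gave 3 genes, and leaving out batch 1 shHrs replicate 2 gave 0. As a count that rests on no model, 602 genes (4.77%) had both shHrs libraries above both shCTL libraries in batch 1 and again in batch 2, and 693 (5.49%) had them below. Called here "separated in both batches", these 1295 genes became 3422 or 2631 when shHrs replicate 1 or 2 of batch 1 was left out, and 3597 when shCTL replicate 2 of batch 1 was. Of the 602 and 693, 339 and 487 had an unadjusted p under 0.05, and the 10 largest fold changes on each side of these, above a low mean level (log2 CPM of 1), are the genes named next.

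**Figure D2:**
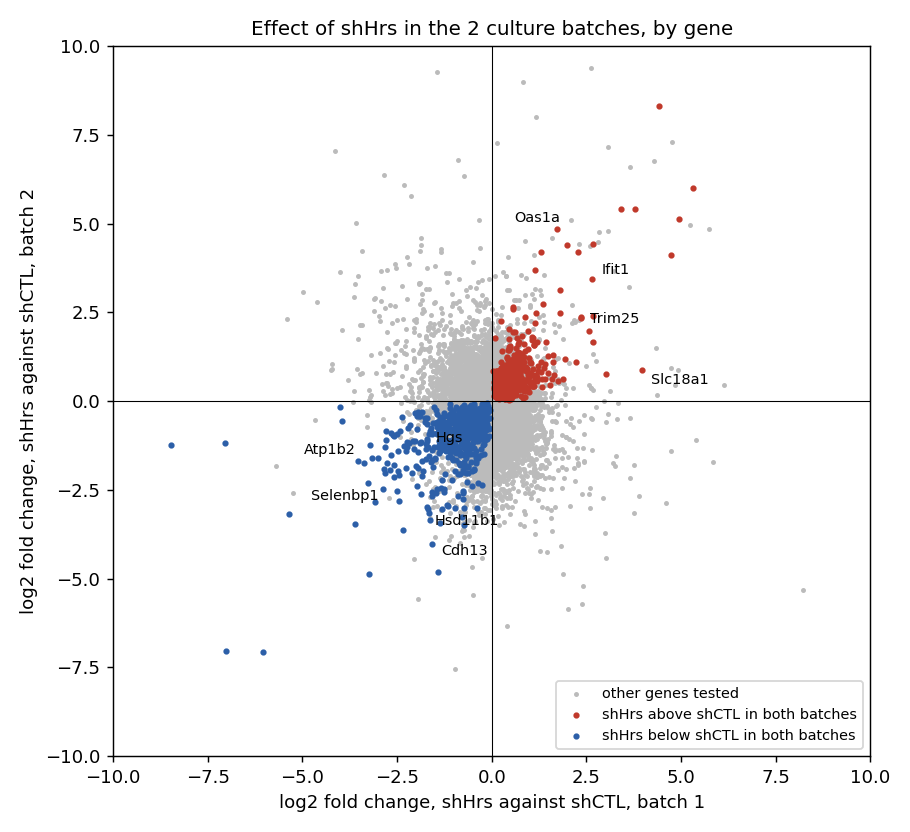
Each point is 1 of the genes tested over both batches, with its log2 fold change of shHrs against shCTL in batch 1 on the horizontal axis and in batch 2 on the vertical axis. Red and blue points are the 602 and 693 genes whose shHrs libraries lay above or below the shCTL libraries in both batches. Most other genes form a cloud around 0 with no visible tilt.

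The 10 genes on the lower side had log2 fold changes from -2.72 for Cdh13 to -2.27 for Ankrd37, and 0 of them were in the interferon lists. Selenbp1, at chr3:94933056-94944758, encodes a selenium-binding methanethiol oxidase. It had 462 and 213 CPM with shCTL and 38.5 and 54.7 CPM with shHrs in batch 1, and 80.7 and 56.7 against 11.6 and 13.1 CPM in batch 2. Levels of Selenbp1 differed between the batches, yet within each batch both shHrs libraries were several times below both controls. The log2 fold change was -2.86 in batch 1, -2.48 in batch 2 and -2.67 (SE 0.29) over both, with an edgeR adjusted p of 0.0502 for Selenbp1, and a range of 4.28e-14 to 0.294 over 15 other settings.

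C1s, the complement protease C1s, showed the same order. Its levels were 57.7 and 88.3 CPM with shCTL and 11 and 11.6 CPM with shHrs in batch 1, and 32.4 and 38.6 against 9.69 and 8.91 CPM in batch 2. The shHrs libraries of both batches lay close together for C1s, whatever the level of their controls. Its log2 fold change was -2.31 (SE 0.24, edgeR adjusted p = 0.0502), and because mice carry near-identical C1s copies its reads may be shared between them. Hsd11b1, at chr1:193221634-193264075, makes active glucocorticoid. It had 10.2 and 7.97 CPM with shCTL against 2.89 and 2.73 CPM with shHrs in batch 1, and 16.9 and 19.6 against 1.99 and 2.45 CPM in batch 2. All 4 shHrs cultures were thus within a narrow band, and Hsd11b1 fell in batch 2 by 3.03 on the log2 scale (SE 0.33, edgeR adjusted p = 0.0189), with -2.37 (SE 0.34, adjusted p = 0.0823) over both batches.

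**Figure D3:**
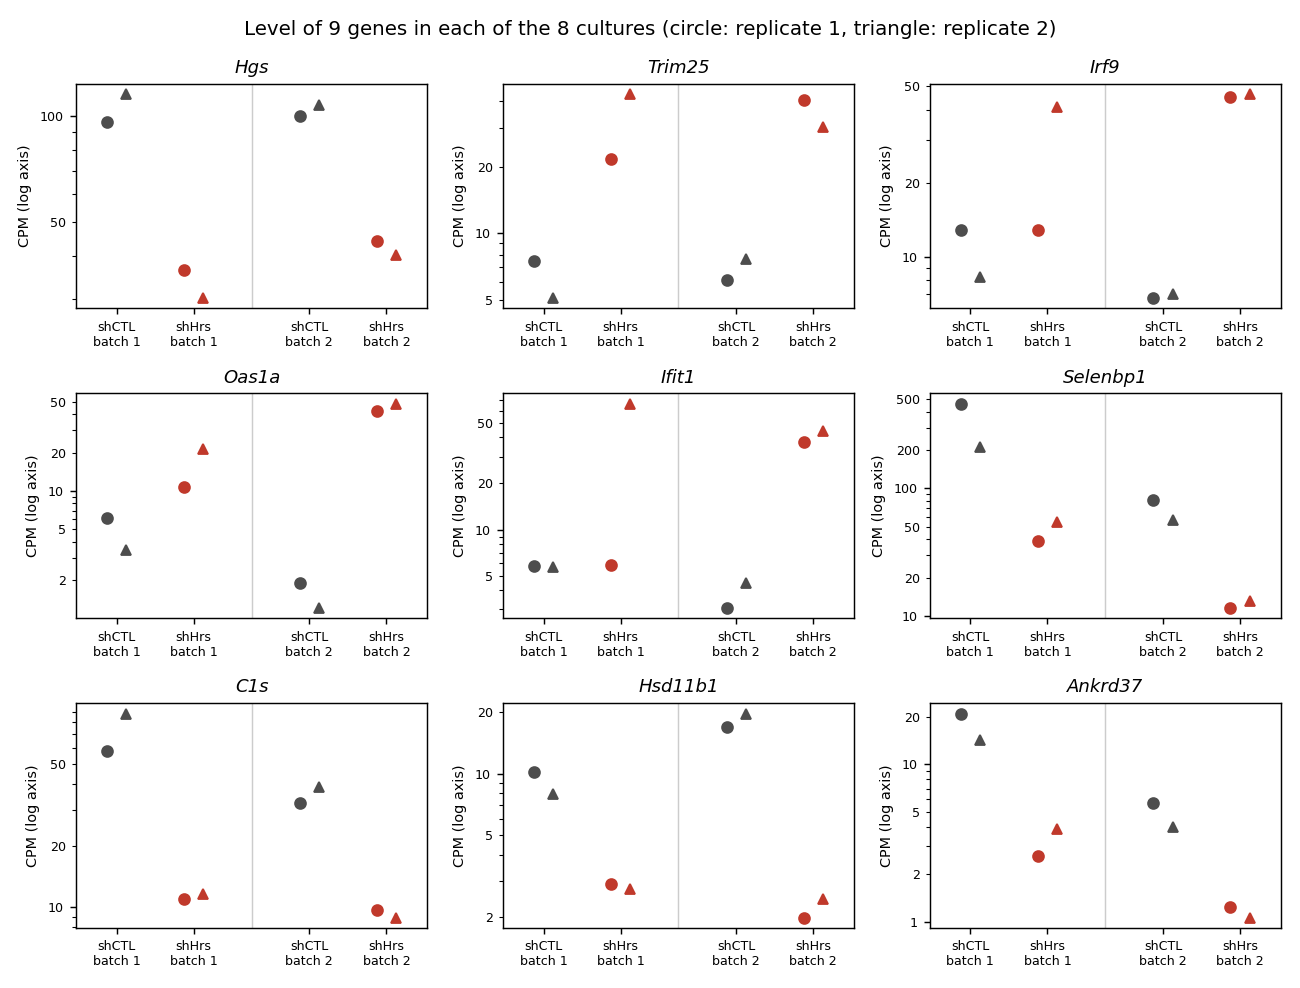
Level of 9 genes in each of the 8 cultures, in CPM on log axes, grey for shCTL and red for shHrs, with a circle for replicate 1 and a triangle for replicate 2. In Hgs, Selenbp1, C1s, Hsd11b1 and Ankrd37 both shHrs libraries of each batch sit well below their controls, while in Irf9 and Ifit1 batch 1 shHrs replicate 1 sits level with its controls (12.9 against 12.8 and 8.2 CPM, and 5.88 against 5.76 and 5.71 CPM).

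The remaining genes on the lower side were Cdh13 (T-cadherin), the small GTPase gene Rasd2, Atp1b2 (a sodium pump subunit), the matrix gene Prelp, Aire (a transcriptional regulator known from the thymus), Fbxo41 and Ankrd37. Cdh13 had 22.5 and 18.3 CPM with shCTL and 11.8 and 1.90 CPM with shHrs in batch 1, and 13.6 and 12.4 against 1.33 and 0.292 CPM in batch 2. The 2 batch 1 shHrs libraries of Cdh13 thus differed from each other by more than either group of controls. Its log2 fold change was -2.72 (SE 0.77, edgeR adjusted p = 0.305). Of the 10 genes, 6 were called lower in batch 2 (2.43% of all genes) and 6 in the fit without batch 1 shHrs replicate 1 (0.84%). The 10 had been chosen for their size and separation in these same libraries, so both counts are a description.

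Ankrd37 is a target of hypoxia-inducible factor, and most genes of the hypoxia list had negative values in batch 1. It had 21.0 and 14.3 CPM with shCTL and 2.61 and 3.86 CPM with shHrs in batch 1, and 5.69 and 3.99 against 1.23 and 1.06 CPM in batch 2. Ankrd37 fell in batch 2 (log2 fold change -2.08, SE 0.41, edgeR adjusted p = 0.0358), and over both batches it had -2.27 (SE 0.29, adjusted p = 0.0680). Of 36 tested hypoxia and glycolysis genes, 30 had negative values, 8 were separated in both batches on the lower side against 5.49% of all genes, and 0 on the higher side. The 8 were Ankrd37, Adm, Aldoc, Bnip3, Car9, Egln1, Pdk1 and Pfkp. Bnip3, a mitophagy receptor, had 432 and 281 CPM with shCTL and 103 and 115 CPM with shHrs in batch 1. In batch 2 Bnip3 had 97.2 and 85.1 CPM with shCTL and 55.8 and 75.1 CPM with shHrs. The separation was wide in batch 1 and narrow in batch 2, where the controls of Bnip3 already stood at the level of the batch 1 knockdown. The mean log2 CPM of the hypoxia list was 8.11 and 7.83 in the batch 1 controls against 7.10 and 7.13 with shHrs, and 6.81 and 6.78 against 6.55 and 6.63 in batch 2. Control cultures of the 2 batches thus differed in this list by more than shHrs and shCTL did within either. Vegfa, the vascular growth factor, was another member called in batch 2 (-2.93, SE 0.59, edgeR adjusted p = 0.0382). In batch 1 Vegfa overlapped, with 276 and 208 CPM with shCTL and 121 and 510 CPM with shHrs.

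The 10 genes on the higher side were Oas1a, Oas1g, Ifit1, Trim30a, Slc18a1, Trim25, Phlda2, Nlrc5, Irf9 and Pla2g2e, and most of them are interferon-induced. Promoters of the interferon-induced ones that hold an ISRE core are shown, with those of 3 other members of the interferon lists, because all 7 had higher levels in both shHrs than in both shCTL cultures of batch 2 (Ifit1 and Isg15 did not pass the test there). The core searched was GAAA, any 2 bases and GAAA, on both strands, within the 250 bases before each RefSeq start (GRCm38.p6), and overlapping matches were allowed, as in Oas1a and Isg15. No match of another motif searched lies in the capitals. Capitals mark the bases covered by matches, and each line reads 5′ to 3′ on the gene's own strand, so that TTTC runs mark a core on the opposite strand. Oas1a and Oas1g lie at chr5:120907526-120907565 and chr5:120887614-120887651 (minus strand), Ifit1 at chr19:34640765-34640833 (plus) and Trim30a at chr7:104465200-104465249 (minus). Isg15 lies at chr4:156200855-156200916 (minus), Gbp3 at chr3:142559979-142560034 (plus) and Igtp at chr11:58199502-58199551 (plus).
Oas1a: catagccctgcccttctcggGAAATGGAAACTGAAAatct
Oas1g: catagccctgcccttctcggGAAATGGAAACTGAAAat
Ifit1: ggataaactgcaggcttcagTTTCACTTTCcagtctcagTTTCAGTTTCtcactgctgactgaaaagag
Trim30a: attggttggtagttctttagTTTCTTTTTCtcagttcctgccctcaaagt
Isg15: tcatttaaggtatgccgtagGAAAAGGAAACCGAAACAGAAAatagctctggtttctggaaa
Gbp3: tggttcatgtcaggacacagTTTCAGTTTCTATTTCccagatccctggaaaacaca
Igtp: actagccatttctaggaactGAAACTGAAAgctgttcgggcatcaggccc

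Of all tested genes with a window, 2.96% (278 of 9383) held the core. In the list of antiviral effectors 10 of 26 did (38.5%), and among interferon-induced GTPases 8 of 9 (88.9%). The stretches of Oas1a and Oas1g are the same over 38 bases, as befits near-identical neighbouring genes, so reads of one may have been counted for the other. A match is a description of letters and does not show that a factor was bound.

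Oas1a encodes an antiviral enzyme that senses double-stranded RNA. It had 6.2 and 3.45 CPM with shCTL and 10.8 and 21.5 CPM with shHrs in batch 1, and 1.91 and 1.22 against 42.3 and 48.3 CPM in batch 2. Every shHrs library was above its controls, by a small margin in batch 1 replicate 1 and by a large one in batch 2. Oas1a rose in batch 2 by a log2 fold change of 4.85 (SE 0.50, edgeR adjusted p = 0.0189), and over both batches had 3.25 (SE 0.69, adjusted p = 0.256). Ifit1, which binds RNA lacking a self mark at its end, had 5.76 and 5.71 CPM with shCTL and 5.88 and 66.5 CPM with shHrs in batch 1. In batch 2 Ifit1 had 3.08 and 4.50 CPM with shCTL and 37.5 and 44.1 CPM with shHrs. Batch 1 shHrs replicate 1 was barely above its controls for Ifit1, and the log2 fold change over both batches was 3.04 (SE 0.63, edgeR adjusted p = 0.256).

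In Trim25 all 4 shHrs cultures stood well above their controls. This gene encodes a ubiquitin ligase that acts with the RNA sensor RIG-I and lies at chr11:88999376-89020293. Trim25 had 7.51 and 5.09 CPM with shCTL and 21.9 and 43.1 CPM with shHrs in batch 1, and 6.16 and 7.65 against 40.6 and 30.3 CPM in batch 2. The log2 fold change was 2.36 in each batch, and 2.36 (SE 0.28) over both with an edgeR adjusted p of 0.0502. Over 15 other settings the adjusted p of Trim25 ran from 2.73e-12 to 0.344. Trim25 rose in batch 2 (edgeR adjusted p = 0.0264).

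Irf9, the DNA-binding subunit of the interferon-activated complex, had 12.8 and 8.20 CPM with shCTL and 12.9 and 41.0 CPM with shHrs in batch 1. Batch 2 had 6.76 and 7.02 CPM with shCTL and 45.1 and 46.6 CPM with shHrs, where Irf9 rose (log2 fold change 2.73, SE 0.51, edgeR adjusted p = 0.0329). The other 3 shHrs cultures thus had similar levels of Irf9, and batch 1 shHrs replicate 1 was level with its controls. Nlrc5, the regulator of MHC class I genes, had 2.14 (SE 0.46, adjusted p = 0.256) over both batches, and Trim30a, an antiviral ligase, rose in batch 2 (3.68, SE 0.56, adjusted p = 0.0229).

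The other genes of the higher side are not known as interferon targets. Slc18a1, a vesicular monoamine transporter, had 0.437 and 1.02 CPM with shCTL and 1.44 and 21.1 CPM with shHrs in batch 1, and 1.59 and 2.27 against 3.23 and 3.87 CPM in batch 2. Its value rested mainly on batch 1 shHrs replicate 2, as did that of the secreted phospholipase gene Pla2g2e, at 145 CPM there and between 21.7 and 32.1 CPM in the other shHrs cultures. The log2 fold changes were 2.37 (SE 0.96) for Slc18a1 and 1.89 (SE 0.68) for Pla2g2e, with edgeR adjusted p of 0.353 and 0.339. Phlda2, an imprinted growth inhibitor, had 2.26 (SE 0.54, adjusted p = 0.268).

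By function, the interferon effectors had high values and the receptors had values near 0. Of 35 tested antiviral effectors, 32 had positive values over both batches (median 1.85), 26 were higher at an unadjusted p under 0.05 against 5.73% of all genes, and 8 were separated in both batches on the higher side against 4.77%. In batch 2, 14 of the 35 were called higher, against 1.6% of all genes, and 0 lower. Apart from Oas1a and Oas1g, those called in batch 2 included Ifitm3, which blocks virus entry (2.32, SE 0.35, edgeR adjusted p = 0.0229), Rtp4 (3.12, SE 0.56, 0.0297) and Xaf1, a cell death factor (4.05, SE 0.58, 0.0229). In the fit without batch 1 shHrs replicate 1, 17 of the 35 were called higher, against 0.435% of all genes, and the list's median was 2.25. The fit without batch 1 shHrs replicate 2 instead called 0 of 12807 genes, and its median for the list was 1.62. In batch 2, 3 of the 35 had no count in either control, among them Slfn2, a growth regulator of the Schlafen family (0 and 0 against 1.85 and 1.79 CPM), and the list's batch 2 median of 2.43 was the same with these genes set against a floor of 3 counts.

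The mean log2 CPM of the 35 effectors was 2.70 and 2.07 in the batch 1 controls, 2.59 in batch 1 shHrs replicate 1 and 3.97 in replicate 2. In batch 2 it was 1.76 and 1.91 in the controls and 4.26 and 4.27 with shHrs. Batch 1 shHrs replicate 1 thus lay between its own 2 controls, and the other 3 shHrs cultures lay above all controls. The 10 interferon-induced GTPases, which attack vacuoles of pathogens, were high in the same 3 shHrs cultures, from 0.56 and 0.80 in batch 1 controls to 0.34 and 2.32 with shHrs, and from -0.51 and 0.05 to 2.65 and 2.75 in batch 2. Their median log2 fold change was 2.03, and 3 rose in batch 2 (1.6% of all genes): Gbp3 (4.60, SE 0.93, edgeR adjusted p = 0.0382), Igtp (4.11, SE 0.69, 0.0264) and Irgm1 (2.85, SE 0.36, 0.0225).

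Enzymes that attach or remove Isg15, with the Trim ligases, had a median of 0.90 over 19 genes, and 8 rose in batch 2 (1.6% of all genes). Isg15 itself, a ubiquitin-like protein, had 7.63 and 5.60 CPM with shCTL and 4.44 and 107 CPM with shHrs in batch 1. In batch 2 Isg15 had 3.31 and 6.39 CPM with shCTL and 98.2 and 171 CPM with shHrs. Its shHrs libraries overlapped the controls in batch 1 through replicate 1, and Isg15 was not called in batch 2 (edgeR adjusted p = 0.0620). The genes that rose there included the Parp and Dtx3l group, with Parp12 at 2.20 and Dtx3l at 2.08 on the log2 scale.

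Sensors of nucleic acids were called higher in 6 of 23 cases in batch 2 (1.6% of all genes). Dhx58, which regulates RIG-I, rose from 2.10 and 1.43 to 9.07 and 12.4 CPM (log2 fold change 2.60, SE 0.42, edgeR adjusted p = 0.0251) and overlapped in batch 1, where shCTL had 3.78 and 2.94 and shHrs 2.78 and 4.05 CPM. Ddx58, which encodes RIG-I, had 29.2 and 29.5 CPM with shCTL and 25.4 and 94.1 CPM with shHrs in batch 1, and 17.4 and 23.4 against 99.0 and 95.7 CPM in batch 2. Ifi203, of the family of DNA sensors, was separated in both batches, with 0.119 and 0.0566 against 0.5 and 2.15 CPM in batch 1 and 0.0466 and 0.0841 against 2.71 and 3.32 CPM in batch 2. Ifi203 had a log2 fold change of 4.60 (SE 0.67, edgeR adjusted p = 0.0823) over both batches and rose in batch 2 (adjusted p = 0.0264).

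Receptors and transducers of interferon were near 0. The receptor gene Ifnar1 had 0.02 (SE 0.17), Ifngr1 had 0.07 (SE 0.26) and Stat2 had 0.51 (SE 0.30) over both batches. Of the 22 tested genes of this list, 2 rose in batch 2 (1.6% of all genes), Irf9 and the feedback inhibitor Socs1. Of 19 interferon genes in the table, 5 had any count in the cultures, with 1 count in the 4 shCTL and 14 counts in the 4 shHrs cultures together, too few for a test. Ccl5, a chemokine for T cells, had 1.35 and 3.79 CPM with shCTL and 2.05 and 45.7 CPM with shHrs in batch 1, and 1.12 and 2.99 against 26.0 and 26.8 CPM in batch 2. Ccl5 showed the order of Isg15, high in 3 shHrs cultures, with a log2 fold change of 3.45 (SE 0.83, edgeR adjusted p = 0.268). The chemokine gene Cxcl1 varied between controls (2.11 and 169 CPM in batch 1), and its value of -3.89 (SE 1.36, adjusted p = 0.336) was accordingly loose.

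The 19 tested genes of antigen presentation had a median of 0.47 over both batches, -0.02 in batch 1 and 1.16 in batch 2, where 2 rose (1.6% of all genes). The 2 were Tapbp (1.40, SE 0.28, edgeR adjusted p = 0.0382), a loader of MHC class I, and the oxidoreductase gene Pdia3. Tap1, the peptide transporter, had 2.42 and 1.24 CPM with shCTL and 1.67 and 5.76 CPM with shHrs in batch 1, and 1.21 and 1.14 against 7.12 and 7.59 CPM in batch 2. H2-D1, a class I heavy chain, had 0.64 (SE 0.25, adjusted p = 0.346), and reads of class I genes may be shared among their close copies.

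**Figure D4:**
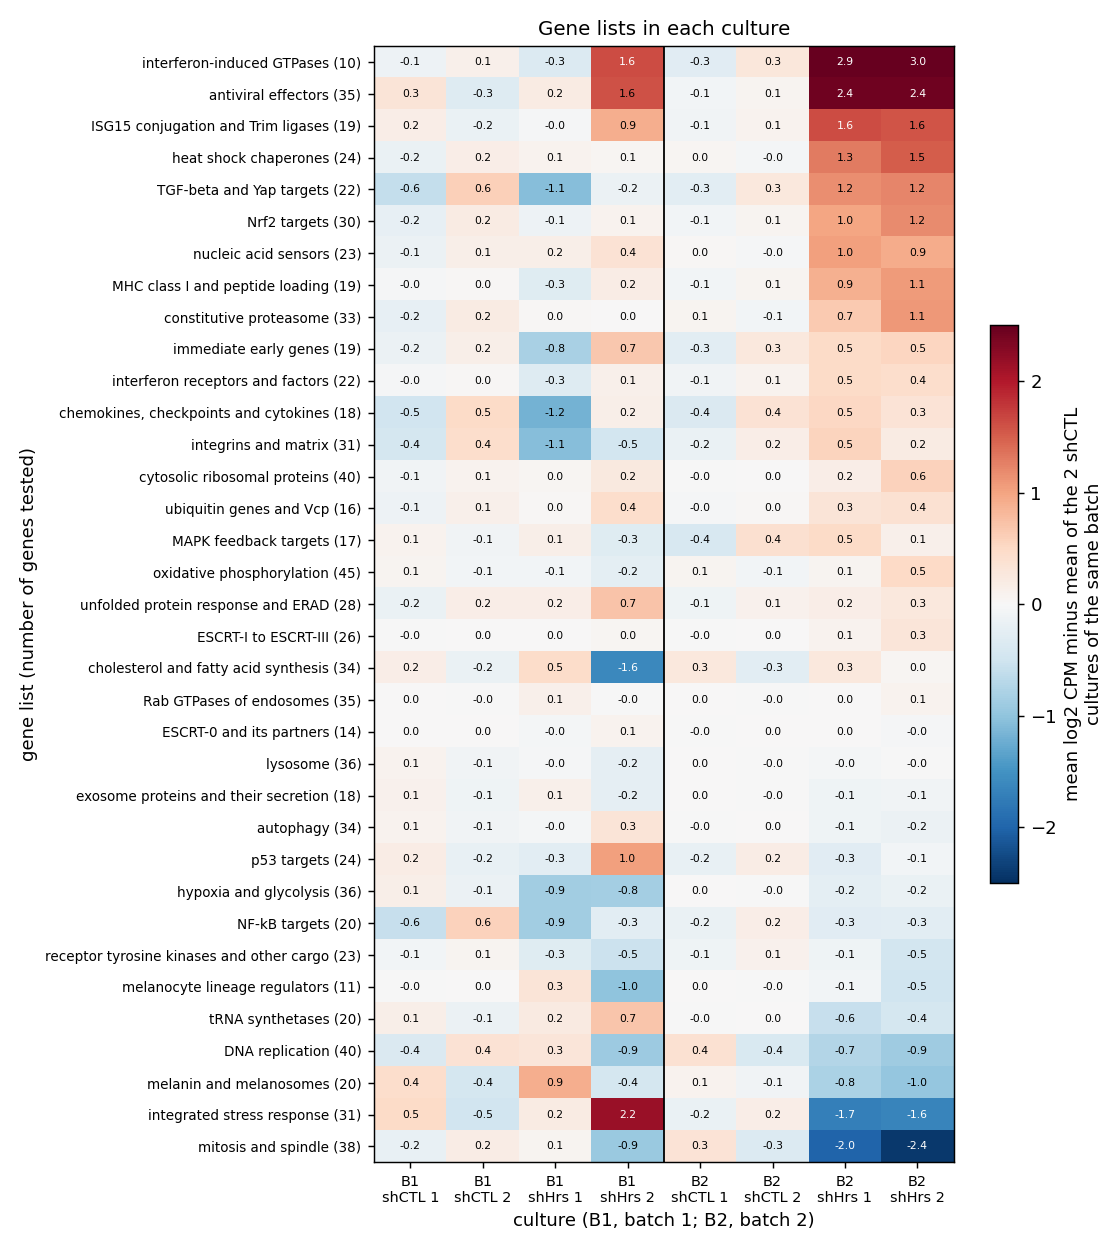
Mean log2 CPM of each gene list in each culture, minus the mean of the 2 shCTL cultures of the same batch (color, with the value printed). Rows are lists with the number of genes tested, and columns are cultures. The lists of antiviral effectors, interferon-induced GTPases and ISG15 conjugation are high in batch 1 shHrs replicate 2 and in both batch 2 shHrs cultures, the heat shock and Nrf2 lists are high in both batch 2 shHrs cultures and near 0 in both of batch 1, and the integrated stress response list has opposite signs in batch 1 shHrs replicate 2 (2.15) and batch 2 (-1.72 and -1.65).

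Cell division genes made up the longest run of falls among the lists in batch 2. There edgeR passed 520 of 12897 genes (4.03%), with 206 higher (1.6%) and 314 lower (2.43%). The count of 520 cannot be tied to single cultures of that batch, since leaving out 1 library leaves 1 in a group. It was 2705 or 2732 when shHrs replicate 1 or 2 of batch 1, whose spread enters the test, was left out. For batch 1 the edgeR count was 0 of 12897 (0.0%), and 1210 genes (9.38%) had an unadjusted p under 0.05, 3.43% higher and 5.95% lower. DESeq2 called 220 genes in batch 1, and edgeR 1496 when its shHrs replicate 1 was left out and 3 when its shCTL replicate 1 was. The effects of single cultures were not alike across batches. Over 12617 genes the Spearman correlation of a culture's difference from its controls with the mean difference of the other batch lay between -0.014 and 0.008 for the 4 shHrs cultures, a description over genes that are not independent. Of 196 genes called higher in batch 2 and tested over both batches, 41.8% were also above their controls in batch 1 shHrs replicate 1 and 39.3% in replicate 2, against 52.1% and 49.3% of all genes. Of 313 called lower, 42.5% and 62.6% were also below, against 47.9% and 50.7%.

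Of 38 tested genes of mitosis and the spindle, 26 fell in batch 2, against 2.43% of all genes, and 24 of the 26 also had negative values in batch 1. The median was -2.30 in batch 2, -0.35 in batch 1 and -1.32 over both. Ccnb2, a mitotic cyclin, had 107 and 54.5 CPM with shCTL and 8.88 and 7.88 CPM with shHrs in batch 2, and 108 and 94.1 against 92.9 and 23.9 CPM in batch 1. Ccnb2 was separated in both batches and fell in batch 2 (log2 fold change -3.27, SE 0.61, edgeR adjusted p = 0.0329). Kif11, the motor that keeps spindle poles apart, had 131 and 101 CPM with shCTL and 18.9 and 12.3 CPM with shHrs in batch 2 (-2.89, SE 0.38, edgeR adjusted p = 0.0229). In batch 1 Kif11 had 108 and 162 CPM with shCTL and 170 and 101 CPM with shHrs, which overlapped. Prc1, a spindle midzone protein, had -1.29 (SE 0.34, adjusted p = 0.297) over both batches.

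Genes of DNA replication fell short of a call: 0 of 40 passed in batch 2 (4.03% of all genes), with a median of -0.94. By edgeR, 14 of the 40 were lower there at an unadjusted p under 0.05, against 14.9% of all genes, and 0 were higher, against 13.0%. Rrm2, the ribonucleotide reductase subunit, had 290 and 132 CPM with shCTL and 87.3 and 70.9 CPM with shHrs in batch 2, and 253 and 502 against 347 and 149 CPM in batch 1. The mean log2 CPM of the mitosis list in batch 1 was 6.51 and 6.90 in controls, 6.78 in shHrs replicate 1 and 5.77 in shHrs replicate 2. In batch 2 it was 6.72 and 6.04 in controls and 4.37 and 3.96 with shHrs. The 3 shHrs cultures outside the range of the controls were those that lay above it for the antiviral list, and batch 1 shHrs replicate 1 was again among the controls.

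The promoters of Ccnb2 and Kif11 are shown with the cell cycle homology region (CHR, TTTGAA) in capitals, since mitotic genes are known to carry it close to their start. Both strands were searched, and no match of another motif searched overlaps the capitals. The stretches lie at chr9:70421696-70421741 (minus strand) and chr19:37376343-37376381 (plus strand), from RefSeq on GRCm38.p6.
Ccnb2: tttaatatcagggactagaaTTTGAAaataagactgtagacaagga
Kif11: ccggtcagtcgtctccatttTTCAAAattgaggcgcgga

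Of 32 mitosis genes with a window, 11 (34.4%) held a CHR, against 12.4% of all genes tested. The hypoxia response element core (NACGTGC) was likewise found in 13 of 32 hypoxia genes (40.6%), against 8.26% of all. Those of Ankrd37 and Bnip3 lie at chr8:46000066-46000100 and chr7:138909588-138909635, both on the minus strand.
Ankrd37: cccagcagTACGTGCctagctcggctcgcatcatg
Bnip3: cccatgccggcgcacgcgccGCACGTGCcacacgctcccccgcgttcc

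The genes with the largest changes in batch 2 included 5 named here that are in none of the lists. Tnnt2, cardiac troponin T, had 0.0933 and 0.505 CPM with shCTL and 23 and 28.1 CPM with shHrs (log2 fold change 6.36, SE 1.26, edgeR adjusted p = 0.0370). The groups of Tnnt2 overlapped in batch 1, with 1.47 and 14.0 against 1.78 and 0.390 CPM. Gsdmc, a pore-forming gasdermin, fell from 153 and 141 to 10.8 and 7.67 CPM (-4.00, SE 0.53, edgeR adjusted p = 0.0229), and in batch 1 had 107 and 70.9 against 74.5 and 24.4 CPM. Gpr158, an orphan receptor, had -5.46 (SE 1.15, 0.0429), the lipase inhibitor gene G0s2 had -4.26 (SE 0.80, 0.0329) and the helicase gene Pif1 had -3.53 (SE 0.63, 0.0293).

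Heat shock chaperones rose in batch 2 in 11 of 24 tested cases, against 1.6% of all genes, with 0 lower. Hspa8, the constitutive Hsp70, had 1400 and 1180 CPM with shCTL and 5030 and 5130 CPM with shHrs in batch 2 (log2 fold change 1.97, SE 0.41, edgeR adjusted p = 0.0411). Batch 1 had 1620 and 2610 against 2780 and 1230 CPM, so that the groups of Hspa8 overlapped there. Dnaja1, an Hsp70 partner, rose from 216 and 135 to 578 and 775 CPM (1.95, SE 0.39, adjusted p = 0.0384), and Bag3, a co-chaperone, rose by 1.08 (SE 0.23, adjusted p = 0.0429). Hspb7, a small heat shock protein, went from 5.88 and 3.57 to 98.8 and 99.4 CPM. The median of the list was 1.24 in batch 2 and 0.06 in batch 1.

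The paired chaperones of mitochondria were high in both batches. Hspd1 had 780 and 1090 CPM with shCTL and 1330 and 1780 CPM with shHrs in batch 1, and 900 and 1040 against 1630 and 1980 CPM in batch 2. Its partner Hspe1 had 159 and 219 against 243 and 517 CPM in batch 1, and 224 and 264 against 415 and 628 CPM in batch 2. No shHrs library of the 2 genes overlapped a control of its batch, with log2 fold changes of 0.82 (SE 0.19) for Hspd1 and 1.05 (SE 0.27) for Hspe1 and edgeR adjusted p of 0.268 and 0.291. In the fit without batch 1 shHrs replicate 1, Hspe1 passed. The 2 genes are known as neighbours with a shared promoter. The window of Hspe1 holds a heat shock element (GAA, 2 bases, TTC, 2 bases and GAA) at chr1:55088039-55088096 of GRCm38.p6, read on the plus strand. Capitals cover matches on both strands, which overlap, and the element was found in 0.458% of all genes tested and in 10.5% (2 of 19) of the chaperone list. The 2 were Hspe1 and Hspd1, and their matches are the same bases of the shared promoter, so the same site was counted for both genes.
Hspe1: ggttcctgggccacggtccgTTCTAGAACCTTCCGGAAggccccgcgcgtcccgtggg

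The 33 tested genes of the constitutive proteasome list all had positive values over both batches, with a median of 0.45. Adrm1, a ubiquitin receptor of the proteasome, had 0.60 (SE 0.21, edgeR adjusted p = 0.339). In batch 1 the list's median was -0.05, and 15 of 33 were positive. Psmb3 rose in batch 2 (1.04, SE 0.22, adjusted p = 0.0452). The list for Nrf2, the factor of the response to oxidants, holds targets and also its own gene Nfe2l2 and Keap1. Of its 30 tested genes, 9 rose in batch 2 (1.6% of all genes), and 1 of these 9 had a positive value in batch 1 (50.7% of all genes). Nqo1, a quinone reductase, had 5.27 and 5.93 CPM with shCTL and 65.5 and 63.9 CPM with shHrs in batch 2 (3.53, SE 0.59, adjusted p = 0.0264). Pgd of the pentose phosphate pathway rose from 101 and 104 to 666 and 792 CPM (2.83, SE 0.43, adjusted p = 0.0229). In batch 1 shCTL replicate 2 had the highest level of Pgd, 402 CPM, against 152, 230 and 265 CPM in the other 3.

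Genes of the integrated stress response, which Atf4 drives when amino acids run short, had fitted values of opposite sign in the 2 batches. All 31 tested genes had positive values in batch 1 (median 1.31). In batch 2, 29 had negative values (median -1.66), and there 9 fell (2.43% of all genes) and 0 rose (1.6%). The batch 1 values rested mainly on shHrs replicate 2. The list's mean log2 CPM was 6.98 and 6.04 in the batch 1 controls, 6.72 in shHrs replicate 1 and 8.66 in shHrs replicate 2. Replicate 1 thus lay between its own 2 controls. Chac1, which degrades glutathione, had 85.6 and 20.6 CPM with shCTL and 118 and 439 CPM with shHrs in batch 1, and 103 and 207 against 3.04 and 2.81 CPM in batch 2. Atf4 itself had 491 and 258 against 604 and 984 CPM in batch 1 and fell from 606 and 600 to 161 and 222 CPM in batch 2 (log2 fold change -1.66, SE 0.37, edgeR adjusted p = 0.0498). None of the 9 that fell in batch 2 was negative in batch 1. Of the 20 tRNA synthetase genes, 19 were positive in batch 1 and 5 in batch 2, and Iars fell in batch 2 by 1.63 (SE 0.27, adjusted p = 0.0264). By the test of the difference between the batches, 0 genes of the integrated stress response list passed over all genes tested.

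That test called 20 of 12897 genes (0.155%), with 17 more positive in batch 2 (0.132%) and 3 more negative (0.0233%). The largest were Lims2, a focal adhesion gene (difference 6.41, SE 0.87, edgeR adjusted p = 0.0428), Hspb7 (6.24, SE 0.83, 0.0428), Trim16 (6.10, SE 0.63, 0.0285) and Plat, tissue plasminogen activator (5.26, SE 0.66, 0.0374). Hspb7 had 11.7 and 37.7 CPM with shCTL and 4.44 and 9.17 CPM with shHrs in batch 1, opposite to batch 2. Plat had 11.6 and 25.7 against 1.89 and 1.37 CPM in batch 1, and 2.33 and 1.77 against 7.5 and 6.24 CPM in batch 2. Controls of batch 1 thus stood above those of batch 2 in both genes. On the other side were Ndc80, a kinetochore gene (-3.23, SE 0.34, 0.0285), and Jdp2, an AP-1 family repressor (-3.05, SE 0.38, 0.0374). Ndc80 had 40.2 and 45.2 CPM with shCTL and 47.5 and 56.6 CPM with shHrs in batch 1, but 71.0 and 57.9 against 7.5 and 9.16 CPM in batch 2. The count of 20 became 0 when any single library of batch 2, or shCTL replicate 2 of batch 1, was left out, 1968 or 635 when shHrs replicate 1 or 2 of batch 1 was left out, and 142 when shCTL replicate 1 of batch 1 was.

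Lists of lysosome, autophagy and oxidative phosphorylation genes had medians close to that of all genes (-0.02). The median over both batches was -0.05 for 36 lysosome genes, 0.06 for 34 autophagy genes and 0.08 for 45 genes of oxidative phosphorylation. In batch 2, 0 members of these lists were called, against 4.03% of all genes. Within them Wipi1, which binds autophagosome precursors, was separated in both batches (54.1 and 51.6 against 26.0 and 27.9 CPM in batch 1, 42.3 and 53.9 against 26.5 and 21.2 CPM in batch 2). All 4 shHrs cultures had about the same level of Wipi1, and its log2 fold change was -0.99 (SE 0.17, edgeR adjusted p = 0.133). Cln3, a lysosomal membrane protein, was separated the other way, at 0.85 (SE 0.23, adjusted p = 0.301). Of 20 tested pigment genes, 15 had negative values over both batches (median -0.29), 16 in batch 2 (median -0.90) and 3 in batch 1 (median 0.29). Tyr, tyrosinase, had 177 and 60.3 CPM with shCTL and 158 and 24.5 CPM with shHrs in batch 1, and 116 and 70.1 against 15.1 and 11.4 CPM in batch 2. Tyr had -2.81 (SE 0.83, edgeR adjusted p = 0.0818) in batch 2, and the level of this melanoma marker was lowest in the 3 shHrs cultures whose interferon genes were high.

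Of 31 tested integrin and matrix genes, 23 had negative values over both batches (median -0.44). Among them 5 were separated on the lower side (5.49% of all genes) and 0 on the higher side (4.77%), and 2 fell and 0 rose in batch 2 (2.43% and 1.6%). All 6 tested fibroblast markers also had negative values, and their part in this was not tested. Lamb2, a laminin chain, had 229 and 206 CPM with shCTL and 125 and 112 CPM with shHrs in batch 1, and 226 and 184 against 96.6 and 63.5 CPM in batch 2. It fell in batch 2 (log2 fold change -1.36, SE 0.27, edgeR adjusted p = 0.0357) and had -1.11 (SE 0.20, adjusted p = 0.184) over both. Against the direction of most of the list, Itga3, an integrin that binds laminin, was high in the same 3 cultures as the interferon genes, with 0.358 and 0.905 against 0.555 and 6.93 CPM in batch 1 and 0.513 and 0.336 against 9.92 and 7.81 CPM in batch 2. The TGF-beta and Yap list holds targets and also factors such as Yap1 and Tead2. Of its 22 tested genes, 4 rose in batch 2 (1.6% of all genes) and 1 fell (2.43%). Ctgf, a matrix-associated growth factor, rose from 3.03 and 4.04 to 64.3 and 66.4 CPM (4.21, SE 0.78, edgeR adjusted p = 0.0325). Batch 1 had 4.73 and 28.6 CPM of Ctgf with shCTL and 4.44 and 8.69 CPM with shHrs.

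In tumours the same hairpin lowered Hgs further, while the 20 genes named for both culture batches had smaller values there, most of them of the same sign. Hgs was at 95.8 to 112 CPM in 5 shCTL tumours and at 16.1 to 29.1 CPM in 5 shHrs tumours (log2 fold change -2.28, SE 0.14, edgeR adjusted p = 3.5e-07). The effect on Hgs in tumours minus that in cultures was -0.82 (adjusted p = 0.0407). Tumours hold host cells that the cultures lack, and in such bulk samples fewer cells of a type and less RNA per cell cannot be told apart. Across all genes the test of the difference called 522 of 14458 (3.61%), 307 (2.12%) with a more positive and 215 (1.49%) with a more negative effect in tumours. In the tumours themselves edgeR called 29 genes (0.201%), 12 higher (0.083%) and 17 lower (0.118%). The count of 522 was 2194 when batch 1 shHrs replicate 1 was left out, 1277 for batch 1 shCTL replicate 2 and 125 for batch 2 shHrs replicate 2. It was between 173 and 337 when any one of the following was left out: batch 2 shCTL replicates 1 and 2, batch 1 shCTL replicate 1, shCTL tumours 1, 2, 3 and 4, and shHrs tumours 1, 2, 3 and 5.

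**Figure D5:**
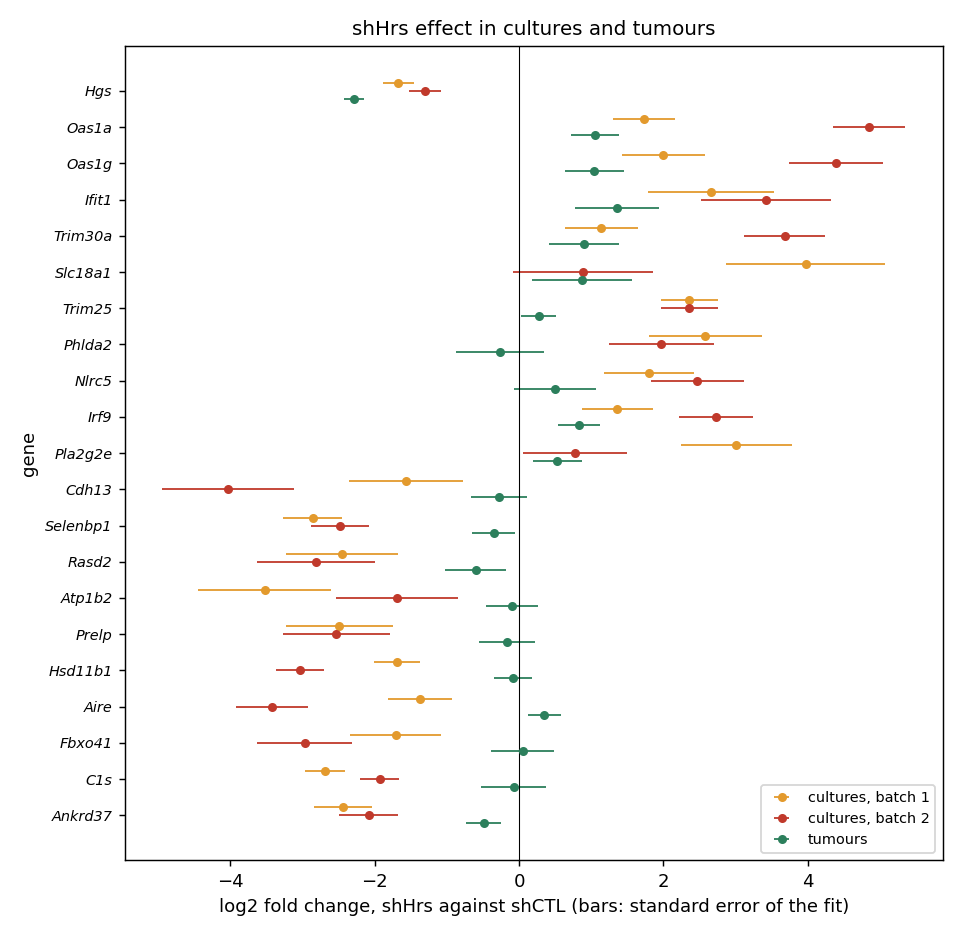
Log2 fold change of shHrs against shCTL with its standard error from the fit, in batch 1 (orange), batch 2 (red) and tumours (green). The genes are Hgs and the 20 separated genes named above for both culture batches. For all 20 the value in tumours is nearer to 0 than the value over both culture batches, which is not plotted. Hgs is the 1 gene with a larger effect in tumours.

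Of the 20 genes named above for both batches, 17 had the same sign in tumours and 0 were called there. All 20 had a smaller absolute value in tumours, and 10 passed the test of the difference. They had been chosen for their size in the cultures, which enters that difference, so the count is a description. Trim25 had 30 to 74.2 CPM in shCTL and 50.8 to 90.4 CPM in shHrs tumours, a log2 fold change of 0.27 (SE 0.24), and differed from the cultures by -2.12 (SE 0.36, edgeR adjusted p = 0.00684). The range in shCTL tumours overlapped that of the shHrs cultures, and levels were not tested between tumours and cultures. Selenbp1 had 66.2 to 165 CPM in shCTL and 46.2 to 149 CPM in shHrs tumours, which overlapped (difference from cultures 2.29, SE 0.46, adjusted p = 0.0143). Aire had 30.2 to 78.4 and 56.8 to 83.5 CPM (2.72, SE 0.39, adjusted p = 0.00301). Oas1a was at 5.50 to 28.8 CPM in shCTL and 25.1 to 52.4 CPM in shHrs tumours (1.05, SE 0.33, adjusted p = 0.312), and its effect minus that in cultures was -2.28 on the log2 scale (SE 0.52, adjusted p = 0.0258).

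Among the other large differences, L1cam, a neural adhesion molecule, was higher in shHrs tumours (14.1 to 18.4 CPM against 2.07 to 6.97 CPM, edgeR adjusted p = 0.0170) and had -0.93 (SE 0.29) in cultures. Its difference was 2.81 (SE 0.42, edgeR adjusted p = 0.00321), and the effect of Hspa1b, the inducible Hsp70, differed by -2.40 (SE 0.56, adjusted p = 0.0282). Hspa1b had 32.7 to 147 CPM in shCTL and 20.7 to 34.6 CPM in shHrs tumours, against a rise from 7.97 and 4.58 to 42.2 and 37.2 CPM in batch 2 cultures. The median log2 fold change of antiviral effectors was 0.87 in tumours, that of heat shock chaperones -0.06 and that of mitosis genes -0.03, each in the fit of the tumours' own effect. In that fit 35 of 35 antiviral effectors and 10 of 10 interferon-induced GTPases had positive values. So did 9 of 24 chaperones and 15 of 38 mitosis genes. Of all genes tested over both culture batches, 6527 were positive in tumours and 6086 negative.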

How the data were processed

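RNA was sequenced as pairs on an Illumina HiSeq from NEBNext Ultra libraries, per the labels' protocols. Per the submitters' processing notes, tools included STAR 2.4.0h2 and DESeq, with build mm10. Which tool, annotation and strand rule made the counts is not given in the sources used here. The deposited table held raw counts of reads per gene symbol, with no normalization, for 23453 symbols, 0 of them mitochondrially encoded. All sample columns were used.

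Genes that passed filterByExpr (minimum count 10) were scaled by TMM in R 4.3.3 and tested, two-sided, with edgeR 4.0.16's quasi-likelihood F test and Benjamini-Hochberg adjustment over all genes tested (threshold 0.05). The fit of both batches had batch as a term. Batch effects, their difference and the difference from tumours came from fits with a mean per group. Standard errors follow from the fold change and F. CPM use TMM sizes, and log2 CPM a prior count of 2. DESeq2 1.42.0 and limma 3.58.1 were alternatives. Procedures were tested on simulated counts with the same spread for every gene and no batch effect. The uneven replicates of these data were not simulated.

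The members, 42 gene lists (1004 genes, 3 absent, 9 matched by an older symbol) and tests were chosen with earlier results of these data known, so lists have counts and medians but no test. Named genes were Hgs; the 10 largest each way over both batches, separated in both batches with unadjusted p under 0.05 where the threshold was missed; the 6 largest each way in batch 2; the 4 largest each way of a difference; and the 4 of each list with the smallest p. A further 29 named genes, such as Hspa8, Kif11, Nqo1, Atf4 and Ddr2, were chosen after their values were seen. Genes with a mean log2 CPM under 1 and predicted genes were left out of the first 4. Positions are those of GENCODE on GRCm38 and promoters those of RefSeq. Some genes are not reported here.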

Additional observations from a re-analysis of the deposited data

Results flagged for a closer look

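Batch 1 shHrs replicate 1 stood below the other 3 shHrs cultures for Phlda2 (0.39 log2 CPM) and Irf9 (3.70 log2 CPM), and for the mean log2 CPM of the chemokine list (1.79) and the immediate early list (3.32). It stood above them for the melanoma markers (9.63). Batch 1 shCTL replicate 1 stood above the other 3 shCTL cultures for the lysosome list (7.02). Each of these 6 values lay farther from the nearest of its group of 4 than Dixon's 95% limit allows, among 116 groups tested, where chance gives about 1 in 20.

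The effect of shHrs differed between batch 2 and batch 1 for Lims2 (6.41), Hspb7 (6.24), Trim16 (6.10), Plat (5.26), Ndc80 (-3.23) and Jdp2 (-3.05), as log2 differences past the threshold in edgeR. Between tumours and cultures it differed for L1cam (2.81), Aire (2.72), Gpr158 (2.66), Cdh13 (2.5), Hspa1b (-2.40), Oas1a (-2.28), Ctgf (-2.25) and Mt2 (-2.13).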

How the results depend on the processing

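With 2 libraries a group and batch, most counts of calls changed widely with the tool, the filter and the libraries kept. Genes called over both batches (0) numbered 301 with DESeq2, 5 with limma voom, 2114 with voom quality weights, 74 with no filter, 3 with no batch term, 0 with RLE scaling and 0 to 164 without 1 library. For batch 1 (0) they were 220 with DESeq2, 438 with no filter, 1 with the replicate block and 0 to 1496 without 1 library. For batch 2 (520) they were 1988 with DESeq2, 3657 with quality weights, 2224 with no filter, 4303 from that batch's libraries alone and 0 to 2732 without 1 library. For the difference between batches (20) they were 980 with DESeq2, 13 with voom, 73 with quality weights, 1311 with no filter and 0 to 1968 without 1 library. For tumours against cultures (522) they were 1410 with DESeq2 and 125 to 2194 without 1 library. Separated genes (1295) ranged from 1517 to 3597 without 1 library, where fewer libraries have to separate, an alternative chosen after seeing the data. The causes of the other changes were not tested.

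Same-numbered libraries did not pair: their deviations correlated at 0.157 in batch 1 and 0.0247 in batch 2. With the replicate block the counts were 0 over both batches, 464 in batch 2 and 18 for the difference. Stam over both batches turned to -0.33 with quality weights, and without 1 library ran from -0.41 (batch 1 shHrs replicate 2) to 0.43, with -0.04 and -0.09 without batch 1 shCTL replicate 1 or 2. Fcer1g, a myeloid marker, ran from -0.08 (batch 2 shCTL replicate 2) to 0.50, with -0.06 without batch 1 shHrs replicate 1. Without 1 library the receptor genes Ifnar1 and Ifngr1 ran from -0.05 to 0.12 and from -0.12 to 0.26. No other gene tested this way over both batches changed sign in the settings run. The 44 genes followed in batch 2 kept their direction in every setting, all 44 lost their call without any 1 library of that batch, and 11 lost it with the replicate block. The list medians of antiviral effectors (1.6 to 2.33), GTPases (1.80 to 2.54), mitosis (-1.77 to -0.94), heat shock (0.54 to 0.93) and hypoxia (-0.50 to -0.25) kept their sign in 15 settings each. That of the TGF-beta and Yap list ran from -0.17 to 0.70 and that of the integrated stress response from -1.0 to 0.36. Depth limits genes of a few CPM, such as Cdh13, Slfn2 and the interferon genes.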
